A study of Mus musculus with 2 samples.

Results

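The genes examined here encode the SR proteins, the heterogeneous nuclear ribonucleoproteins (hnRNPs), the SF3A and SF3B subunits and the Snrp proteins of the spliceosome, and they were taken as all gene symbols that begin with Srsf, Sfrs, Hnrnp, Sf3a, Sf3b or Snrp. These were 50 of the 23167 symbols in each library: 12 SR, 18 hnRNP, 8 SF3 and 12 Snrp genes. The series deals with 5-hydroxymethylcytosine in mouse T cells, and its RNA-Seq part holds 1 library of naive CD4 T cells and 1 library of naive CD8 T cells. Both came from spleen and lymph nodes of Foxp3-GFP reporter mice on a C57/BL6 background, and the sort kept CD25-negative, Foxp3-GFP-negative cells with high CD62L and low CD44. Values are RPKM, reads per kilobase of gene and per 1000000 reads. The labels do not say how many mice gave each library, and with 1 library per cell type no difference has a replicate check and no p-value is given.

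Splicing removes introns from nuclear transcripts on the spliceosome, a machine built from small nuclear RNA particles (U1, U2, U4, U5 and U6) and many further proteins. Each of U1, U2, U4 and U5 carries a ring of Sm proteins, and the SF3A and SF3B complexes hold the U2 particle on the intron's branch site. SR proteins mostly promote the use of nearby exons while many hnRNPs repress it, and in T cells the balance of such regulators is known for setting which exons of the CD45 gene Ptprc are included.

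In both libraries the splicing genes were well expressed. Genes of the Sm ring were higher in CD8, with Snrpf at 32.6 RPKM in CD4 cells and 81.2 in CD8 cells and Snrpg at 152 RPKM in CD4 cells and 308 in CD8 cells. The RPKM summed over the 12 Snrp genes was 609 in CD4 and 959 in CD8. The sums of the other classes lay close together, at 935 in CD4 and 859 in CD8 for the SR genes, 1939 in CD4 and 1925 in CD8 for the hnRNP genes and 673.6 in CD4 and 613 in CD8 for the SF3 genes. The Snrp genes accounted for 14.6% of the summed RPKM of all 50 genes in CD4 and 22% in CD8.

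The 4 Sm genes that differed most were Snrpd2, Snrpd3, Snrpf and Snrpg, and the 250 bases before their annotated starts are shown because these genes differed in the same direction. The sequences are from RefSeq on GRCm38.p6, 5′ to 3′ on the gene's strand. Capitals mark every match on either strand to the NRF1 motif (GCGCA, any base, GCGC), the ETS motif CCGGAAG or the CCAAT box, which reads ATTGG on the other strand.
Snrpd2, chr7:19149588-19149837, plus strand: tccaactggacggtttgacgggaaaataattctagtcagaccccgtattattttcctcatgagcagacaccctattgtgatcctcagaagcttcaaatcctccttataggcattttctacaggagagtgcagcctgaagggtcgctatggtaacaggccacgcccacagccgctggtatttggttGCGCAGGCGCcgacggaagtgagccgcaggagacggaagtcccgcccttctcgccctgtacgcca
Snrpd3, chr10:75517792-75518041, plus strand: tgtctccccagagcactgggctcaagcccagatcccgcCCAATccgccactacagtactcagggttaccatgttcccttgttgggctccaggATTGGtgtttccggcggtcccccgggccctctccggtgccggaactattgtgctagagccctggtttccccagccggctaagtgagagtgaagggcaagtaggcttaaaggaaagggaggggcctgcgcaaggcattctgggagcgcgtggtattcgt
Snrpf, chr10:93589659-93589908, minus strand: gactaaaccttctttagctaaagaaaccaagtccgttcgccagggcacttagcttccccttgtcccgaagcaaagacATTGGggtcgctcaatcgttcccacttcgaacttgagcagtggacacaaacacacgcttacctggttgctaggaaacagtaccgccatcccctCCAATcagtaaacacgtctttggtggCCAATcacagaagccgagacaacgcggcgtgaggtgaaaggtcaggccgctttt
Snrpg, chr6:86371290-86371539, plus strand: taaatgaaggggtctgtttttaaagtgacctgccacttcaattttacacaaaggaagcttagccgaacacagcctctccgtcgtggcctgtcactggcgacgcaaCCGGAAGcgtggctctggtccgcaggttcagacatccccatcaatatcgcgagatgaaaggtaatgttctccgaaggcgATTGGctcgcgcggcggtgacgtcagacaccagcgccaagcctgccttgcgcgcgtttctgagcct

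No motif was found in all 4 stretches. Snrpd2 held the NRF1 motif, Snrpd3 held 2 CCAAT boxes, Snrpf held 3 and Snrpg held 1 ETS motif and 1 CCAAT box. Windows of 300 bases, from 250 before to 50 after the start, were available for 44 of the 50 splicing genes. The ETS motif was in 32.8% of the 61 windows of these genes and in 8.86% of all 32851 mouse windows, and the NRF1 motif was in 18% of them and in 4.6% of all. The CCAAT box was in 45.9% of them and 37.4% of all, and TATAAA was in 11.5% of them and 13.6% of all. These matches describe letters in the windows, not binding, and 2 windows of 1 gene can overlap.

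The library totals behind the RPKM were 24741945 reads in CD4 and 23853921 reads in CD8. T cell markers summed to 1785 RPKM in CD4 cells and 1602 in CD8 cells over 6 genes, and all 6 were above 0 in both. Cd4, Zbtb7b and Cd40lg summed to 388.6 RPKM in CD4 cells and 11.1 in CD8 cells, and Cd8a and Cd8b1 summed to 23.9 RPKM in CD4 cells and 1306 in CD8 cells, so the labelled cell types carried their markers. Of the markers of other cells, the B cell gene Cd79b was at 2.14 RPKM in CD4 cells and 28.8 in CD8 cells, while its partner Cd79a was at 0.306 RPKM in CD4 cells and 0.317 in CD8 cells and Ms4a1 was at 0.394 RPKM in CD4 cells and 0.348 in CD8 cells. The 5 NK cell genes summed to 9.82 RPKM in CD4 cells and 119.5 in CD8 cells, mostly from Klrd1. Within that list Eomes was at 1.83 RPKM in CD4 cells and 12.6 in CD8 cells and Klrb1c at 0.0308 RPKM in CD4 cells and 1.36 in CD8 cells, while Ncr1 was at 0.111 RPKM in CD4 cells and 0 in CD8 cells and Klra8 was at 0 in both. Pecam1, listed as a stromal marker, was at 105 RPKM in CD4 cells and 52.4 in CD8 cells, and the collagen genes Col1a2 and Col3a1 were at 0 in both. The part of such cells in the results below was not tested. The ribosomal RNA precursor Rn45s took at least 0.357% of the CD4 total and at least 3.08% of the CD8 total, and the effect of leaving it out of the totals is given with the other alternatives. In such bulk samples fewer cells of a type and less RNA per cell cannot be told apart.

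Of the 50 genes, 49 were at 1 RPKM or more in at least 1 library and were compared. Their median was 55.7 RPKM in CD4 cells and 54.0 in CD8 cells, against 14.1 RPKM in CD4 cells and 13.4 in CD8 cells for all 10228 compared genes, and 43 of the 49 were above that gene median in each library. Levels ran over 2 orders of magnitude, with Hnrnpf 200.1 times as high as Srsf12 in CD4 and 249.6 times as high in CD8. Across the 49 genes the RPKM of the libraries correlated with Pearson's r at 0.969 and Spearman's rho at 0.965, and across all compared genes at 0.95 and 0.953, with genes that are not independent replicates. Genes that were high in CD4 were high in CD8 as well.

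**Figure D1:**
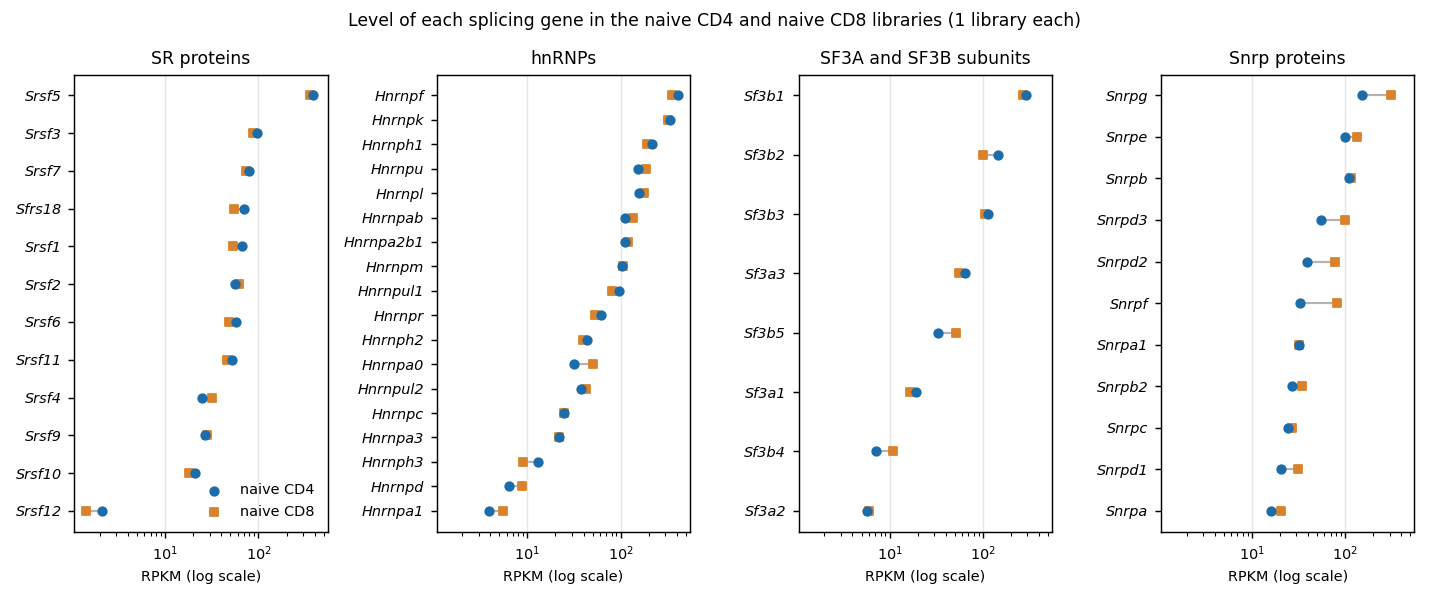
RPKM (log axis) of the 49 compared splicing genes in the naive CD4 library (blue circles) and the naive CD8 library (orange squares), 1 panel per class, genes ordered by mean level, with a grey line joining the libraries. In the SR, hnRNP and SF3 panels most pairs of points nearly touch, while Snrpg, Snrpd3, Snrpd2 and Snrpf have their CD8 points well to the right.

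Differences were taken as log2 of the CD4 RPKM plus 1 over the CD8 RPKM plus 1, so that values above 0 are higher in CD4. At 2-fold or more, 0 of the 49 genes were higher in CD4, where the share of all compared genes was 2.41%, and 2 were higher in CD8 (4.08%), where it was 3.07%, which is near that background. At 1.5-fold or more, 0 were higher in CD4 against a background of 8.07%, and 6 were higher in CD8 (12.2%) against 7.47%. These 6 were Snrpf, Snrpg, Snrpd2, Snrpd3, Hnrnpa0 and Sf3b5, so that 4 of the 6 were Sm genes and 2 of the 38 genes outside the Snrp class passed. The share of all compared genes 1.5-fold or more toward CD8 varied with mean level. It was 4.28% at 20 to 50 RPKM, 6.35% at 50 to 100 and 12.4% at 100 or more. Toward CD4 the share in these ranges was 4.6%, 4.67% and 5.34%, each below the 8.07% over all compared genes. Those ranges held 13, 12 and 15 of the 49 splicing genes. The median log2 difference of the 49 genes was -0.04, and that of all compared genes was 0.08. The median of the splicing genes was above 0 (0.17) when each library was rescaled to the same sum, a scaling that moved the median of all compared genes by 0.21 toward CD4.

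Whole reads could be recovered for all compared splicing genes, and each ratio below carries an exact (Clopper-Pearson) 95% counting interval, which covers counting error only and compares the 2 libraries rather than the cell types. The interval lay above 1 for 21 genes (42.9%), below 1 for 21 (42.9%) and held 1 for 7 (14.3%). Of all 10228 compared genes it lay above 1 for 4435 (43.4%), below 1 for 2641 (25.8%) and held 1 for 3105 (30.4%). The others had reads in only 1 library. The share of splicing genes above 1 was thus near that of all genes, while the share below 1 was larger and the share that held 1 smaller. Intervals narrow as reads rise, and the splicing genes had a higher median RPKM than all compared genes, so these shares are not like for like. The smallest read number per gene and library ran from 78 to 43786, so that even small differences between the libraries could lie outside counting error.

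**Figure D2:**
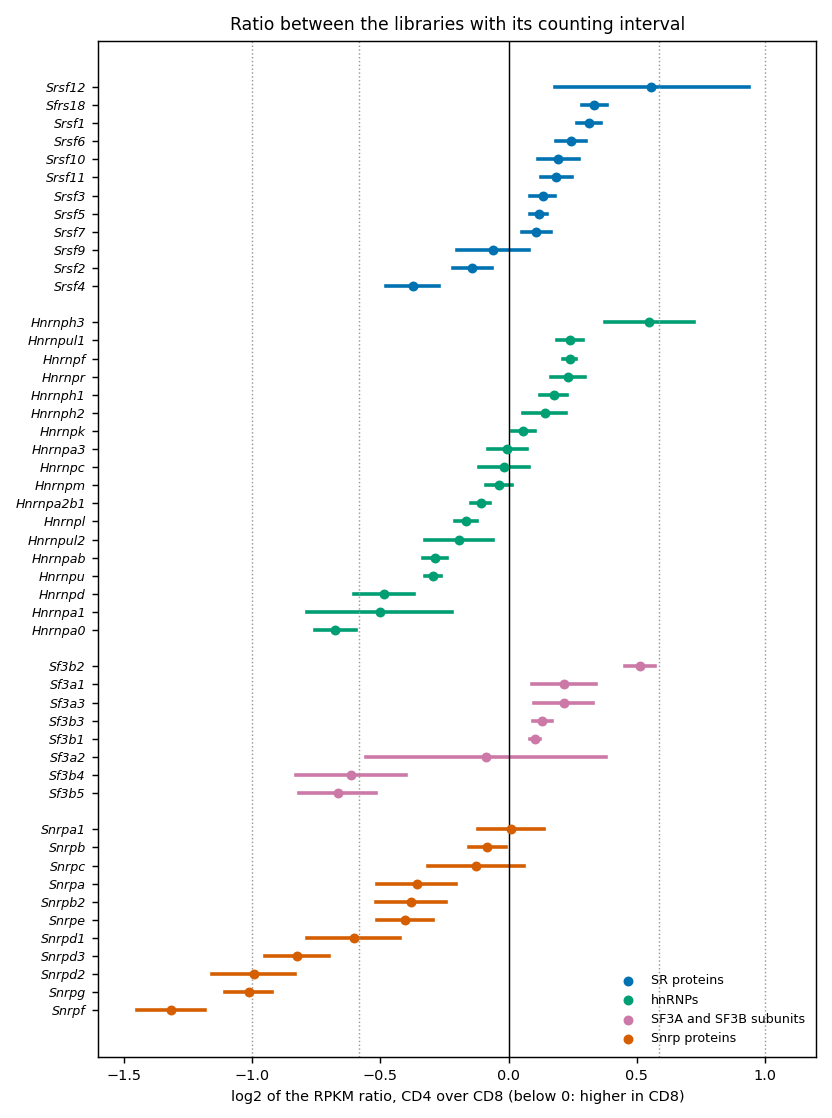
Log2 of the RPKM ratio, CD4 over CD8, for each of the 49 compared splicing genes, coloured by class, with bars for the exact 95% counting interval and dotted lines at 1.5-fold and 2-fold. Of the 11 Snrp genes, 9 have their interval below 0 on this scale and 0 above it, while 9 of the 12 SR genes have it above 0. Of all compared genes 25.8% have it below 0 and 43.4% above.

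The Sm proteins B, D1, D2, D3, E, F and G assemble on the small nuclear RNAs as a ring of 7, from the pairs D3 with B and D1 with D2 and the trio of E, F and G. All 7 of their genes that were compared lay below 0 on the log2 scale, under each scaling tried except the common sum, which put Snrpb above 0. Their median log2 difference was -0.81 and their summed RPKM was 509 in CD4 and 845 in CD8. Snrpf, the F subunit, was at 32.6 RPKM in CD4 cells and 81.2 in CD8 cells, a CD4 to CD8 ratio of 0.402 (95% counting interval 0.366 to 0.440) and a log2 difference of -1.29. Snrpg, the G subunit and its neighbour in the trio, was at 152 RPKM in CD4 cells and 308 in CD8 cells, a ratio of 0.495 (0.465 to 0.528). The last of the trio, Snrpe, differed less, at 100.3 RPKM in CD4 cells and 133 in CD8 cells, a ratio of 0.755 (0.6996 to 0.814). Partners in the ring thus did not share a ratio.

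The same held for the pairs. Snrpd2 was at 39.1 RPKM in CD4 cells and 77.9 in CD8 cells, a ratio of 0.502 (0.448 to 0.562). Its partner Snrpd1 was at 20.3 RPKM in CD4 cells and 30.9 in CD8 cells, a ratio of 0.658 (0.580 to 0.746), and on the log2 scale with the pseudocount it lay just under 1.5-fold. Snrpd3 was at 55.7 RPKM in CD4 cells and 98.7 in CD8 cells, a ratio of 0.565 (0.518 to 0.616). Its partner Snrpb, which encodes the B and B′ proteins, was nearly level at 109 RPKM in CD4 cells and 115 in CD8 cells, a ratio of 0.944 (0.897 to 0.993). The ring needs 1 copy of each protein, but RPKM do not measure protein. In RPKM Snrpg was 7.49 times as high as Snrpd1 in CD4 and 9.95 times as high in CD8. Such a ratio between genes also rests on the gene lengths used and on how reads shared with other genes were counted.

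Snrpn, which encodes an Sm protein close to B and is known mainly from brain, was listed at 0 in both libraries. Its exons overlap those of Snurf on the same strand, over 10% of its length in the GRCm38 annotation, and Snurf was listed at 0 in both libraries too. A listed 0 may be a failed estimate, and no fold is given.

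The U1 and U2 particles carry proteins of their own besides the ring, and 4 of their genes were in the Snrp class. These differed less than the ring, with a median of -0.23. Snrpa, the A protein of U1, was at 16.1 RPKM in CD4 cells and 20.6 in CD8 cells, a ratio of 0.780 (0.7005 to 0.868), and Snrpb2, the related B″ protein of U2, was at 26.6 RPKM in CD4 cells and 34.7 in CD8 cells, a ratio of 0.768 (0.699 to 0.843). Snrpa1, the A′ protein of U2 that pairs with B″, was level at 31.9 RPKM in CD4 cells and 31.7 in CD8 cells, a ratio of 1.01 (0.919 to 1.10). For Snrpc, the C protein of U1, at 24.7 RPKM in CD4 cells and 27.0 in CD8 cells, the interval also held 1 (0.805 to 1.04). Over all 11 compared Snrp genes the median was -0.40 and 10 were below 0, where 59.5% of all compared genes were above 0, and 4 of 11 passed 1.5-fold toward CD8.

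Short genes as a whole leaned the same way in these libraries. Among compared genes with an annotated exonic length under 1000 bases, 27% stood 1.5-fold or more toward CD8 and the median log2 difference was -0.26 (819 genes), whereas at 6000 bases or more 3.75% did and the median was 0.16. Snrpf, at 861 annotated bases, lies in the shortest range with Snrpd1, Snrpe and Snrpc, and Snrpg (1055) and Snrpd2 (1420) lie in the next, where 8.95% of genes stood 1.5-fold or more toward CD8. The RPKM of Snrpg allow a length as short as 389 bases in the authors' annotation, and those of Snrpd2 allow 485. Both may therefore belong in the shortest range. Snrpd3 is longer, at 3036 annotated bases, but its RPKM allow a length as short as 600 bases, and Sf3b5 is annotated at 3841 with 733 allowed. Across the 49 splicing genes length and log2 difference had a Spearman rho of 0.431. Without the 11 Snrp genes it was 0.202 over 38 genes, and within those 11 alone it was 0.036. Over 10123 compared genes it was 0.204. The part of length in the Sm result was not tested.

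**Figure D3:**
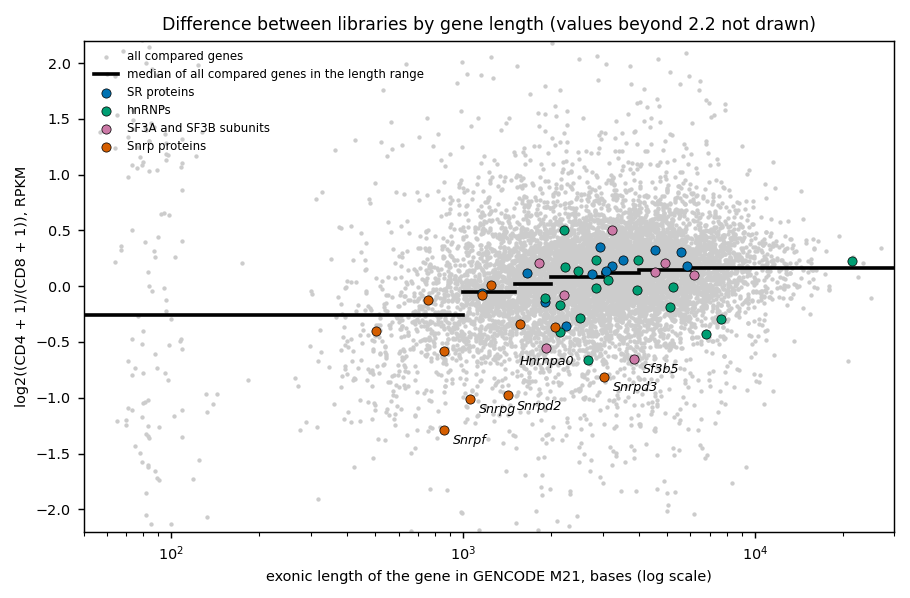
Log2 difference, CD4 over CD8 with 1 RPKM added, against the annotated exonic length (log axis) for all compared genes (grey) and the splicing genes (coloured by class), with black bars for the median of all compared genes in each length range. The bars step up from -0.26 below 1000 bases to 0.16 at 6000 bases or more. Snrpf, Snrpg, Snrpd2 and Snrpd3 lie well below the bar of the range that holds their annotated length.

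Further values belong beside those of the Sm genes. Markers of dividing cells were low and alike, with 6 genes summing to 9.23 RPKM in CD4 cells and 9.49 in CD8 cells. Exons of Snrpf overlap genes on the opposite strand over 85.4% of its length, namely Ccdc38 at 0.233 RPKM in CD4 cells and 0.0461 in CD8 cells and 4933408J17Rik at 0.0654 RPKM in CD4 cells and 0.339 in CD8 cells. These were far below Snrpf itself. Whether strand was used in counting is not given in the sources used here.

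Processed pseudogenes share sequence with many of these genes, so a short read may fit several places, and the handling of such reads is not given in the sources used here. Of all 50-base windows in the coding sequence, 100% for Snrpg, 81.3% for Snrpf, 56.8% for Snrpe and 52.5% for Snrpd2 were also found in an annotated pseudogene transcript, and 0% for Snrpd3. Of the 50 splicing genes, 13 had at least 50% of their coding windows shared in this way and 21 had none. Among the hnRNP genes the share was 100% for Hnrnpa3, 96.1% for Hnrnpf and 80.8% for Hnrnpa1. A window of each of 3 genes with high shares is shown from GENCODE M21 (GRCm38), all in lower case since every base is shared, with 2 pseudogenes for Snrpg, 8 for Hnrnpa1 and 6 for Hnrnpf.
Snrpg, chr6:86376534-86376583, plus strand: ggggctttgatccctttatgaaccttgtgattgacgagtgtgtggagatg
Hnrnpa1, chr15:103241988-103242037, plus strand: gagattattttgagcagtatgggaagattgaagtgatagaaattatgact
Hnrnpf, chr6:117924559-117924608, plus strand: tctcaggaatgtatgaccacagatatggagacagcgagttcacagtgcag
The levels of these genes are therefore uncertain, and the part of shared sequence in the levels and differences was not tested.

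SR proteins bind exonic enhancers through RNA recognition motifs and recruit the spliceosome through domains rich in arginine and serine. Their median log2 difference was 0.16, against 0.08 for all compared genes, and 9 of 12 (75%) were above 0, against 59.5% of all. None passed 1.5-fold. Taken relative to the median gene the SR median was 0.076, and it stayed above 0 under each scaling tried. Srsf5 was by far the highest, at 382 RPKM in CD4 cells and 352 in CD8 cells, a ratio of 1.09 (1.06 to 1.11), and made up 40.9% of the summed SR RPKM in CD4 and 41% in CD8. Srsf3 and Srsf7, known as adaptors for mRNA export, followed. Srsf3 was at 96.9 RPKM in CD4 cells and 88.3 in CD8 cells, a ratio of 1.10 (1.06 to 1.13), and Srsf7 was at 78.8 RPKM in CD4 cells and 73.1 in CD8 cells, a ratio of 1.08 (1.04 to 1.12).

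Sfrs18, the older symbol of Pnisr, an arginine- and serine-rich protein of nuclear speckles, was at 69.4 RPKM in CD4 cells and 55.1 in CD8 cells, a ratio of 1.26 (1.22 to 1.30). Srsf1, the founding SR protein, was close to it at 67.0 RPKM in CD4 cells and 54.0 in CD8 cells, a ratio of 1.24 (1.203 to 1.28). Srsf12 had the largest SR ratio, 1.47, but was the lowest gene of all 49 at 2.08 RPKM in CD4 cells and 1.41 in CD8 cells. It had at least 151 reads in CD4 and at least 99 in CD8, and its interval of 1.13 to 1.91 was wide. Srsf4 went the other way, at 24.8 RPKM in CD4 cells and 32.1 in CD8 cells, a ratio of 0.772 (0.719 to 0.829). Over 67.9% of its exonic length Srsf4 overlaps the antisense gene Gm12992, which was not analysed here.

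The remaining SR genes were Srsf2, which marks nuclear speckles as SC35, Srsf6, Srsf9, Srsf10 and Srsf11. Srsf2 was slightly higher in CD8, at 56.4 RPKM in CD4 cells and 62.2 in CD8 cells. Srsf6 was at 57.3 RPKM in CD4 cells and 48.4 in CD8 cells, and Srsf11 at 52.3 RPKM in CD4 cells and 46.0 in CD8 cells. Srsf10, which represses splicing when it loses its phosphates, was at 20.8 RPKM in CD4 cells and 18.2 in CD8 cells. Srsf9, at 26.8 RPKM in CD4 cells and 27.9 in CD8 cells, was the 1 SR gene whose interval held 1 (0.870 to 1.06).

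The hnRNPs coat nascent transcripts and many of them silence exons. This was the largest class, with 46.6% of the summed RPKM of all 50 genes in CD4 and 44.2% in CD8. Of its genes 7 (38.9%) were above 0 and 11 below, where 59.5% of all compared genes were above 0. Its median log2 difference was -0.03, against 0.08 for all compared genes. Relative to the median gene it was -0.11, and it was 0.18 when both libraries were given a common sum. Hnrnpf, which binds runs of guanine, was at 416 RPKM in CD4 cells and 353 in CD8 cells, a ratio of 1.18 (1.16 to 1.199). Hnrnpk, which binds runs of cytosine, was at 334 RPKM in CD4 cells and 321 in CD8 cells, a ratio of 1.04 (1.01 to 1.07). Hnrnph1, a relative of Hnrnpf with the same binding preference, was at 216 RPKM in CD4 cells and 192 in CD8 cells, a ratio of 1.13 (1.09 to 1.17).

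The other genes of the guanine-binding family leaned to CD4 as well. Hnrnph3 had the largest difference of the class toward CD4, at 13.0 RPKM in CD4 cells and 8.88 in CD8 cells, a ratio of 1.46 (1.30 to 1.65), and Hnrnph2 was at 43.5 RPKM in CD4 cells and 39.5 in CD8 cells, a ratio of 1.10 (1.04 to 1.17). All 4 genes of this family were thus above 0, under each scaling tried. Toward CD8 the largest difference was in Hnrnpa0, an intronless member of the A/B family that binds AU-rich mRNA. It was at 31.2 RPKM in CD4 cells and 49.9 in CD8 cells, a ratio of 0.626 (0.592 to 0.662), and had no window shared with another gene.

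The rest of the A/B family was spread, and none of its genes was higher in CD4, except that a common sum put Hnrnpa2b1 and Hnrnpa3, and housekeeping scaling Hnrnpa3, above 0. Hnrnpa2b1 was at 111 RPKM in CD4 cells and 120.0 in CD8 cells, Hnrnpab at 111 RPKM in CD4 cells and 135 in CD8 cells and Hnrnpa3 at 21.7 RPKM in CD4 cells and 21.8 in CD8 cells. Hnrnpa1, the classical antagonist of Srsf1, was the lowest hnRNP at 3.88 RPKM in CD4 cells and 5.50 in CD8 cells, a ratio of 0.706 (0.580 to 0.857), a value that rests on how reads shared with its pseudogenes were counted. Hnrnpd, the AUF1 protein that binds AU-rich mRNA, was at 6.29 RPKM in CD4 cells and 8.81 in CD8 cells, a ratio of 0.714 (0.659 to 0.773).

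Hnrnpu, a nuclear scaffold protein, was at 153 RPKM in CD4 cells and 187 in CD8 cells, a ratio of 0.815 (0.797 to 0.834). Hnrnpl, which silences CD45 exons, was at 157 RPKM in CD4 cells and 176 in CD8 cells, a ratio of 0.890 (0.864 to 0.917). The Hnrnpu relatives split, with Hnrnpul1 at 95.1 RPKM in CD4 cells and 80.7 in CD8 cells and Hnrnpul2 at 37.6 RPKM in CD4 cells and 42.9 in CD8 cells. Hnrnpr was at 61.8 RPKM in CD4 cells and 52.6 in CD8 cells. Hnrnpc, which binds runs of uridine, and Hnrnpm had intervals that held 1, at 24.5 RPKM in CD4 cells and 24.9 in CD8 cells for Hnrnpc and 102 RPKM in CD4 cells and 105 in CD8 cells for Hnrnpm. Exons of Hnrnpm overlap March2 on the same strand over 29.7% of its length.

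The SF3A and SF3B complexes are parts of the U2 particle, and their 8 genes had a median log2 difference of 0.12, or 0.036 relative to the median of all compared genes, with 5 (62.5%) above 0 where 59.5% of all were, which is near that background. At 1.5-fold 0 passed toward CD4 and 1 toward CD8. Sf3b1, the large scaffold that grips the branch site and is often mutated in blood cancers, was at 287 RPKM in CD4 cells and 267 in CD8 cells, a ratio of 1.07 (1.06 to 1.09). Sf3b2, which contacts the RNA near the branch site, had a log2 difference of 0.51, at 143 RPKM in CD4 cells and 101 in CD8 cells, a ratio of 1.43 (1.37 to 1.49). Sf3b3, a large propeller protein, was at 114 RPKM in CD4 cells and 104 in CD8 cells, a ratio of 1.10 (1.07 to 1.12). The 3 large SF3B subunits thus lay above 0, with ratios from 1.07 to 1.43.

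The remaining Sf3b genes examined, Sf3b5 and Sf3b4, lay on the other side. Sf3b5, the smallest protein of the complex, was at 32.8 RPKM in CD4 cells and 52.1 in CD8 cells, a ratio of 0.630 (0.567 to 0.699). Sf3b4, an RNA-binding subunit, was at 7.17 RPKM in CD4 cells and 10.98 in CD8 cells, a ratio of 0.653 (0.562 to 0.758), and lay just under 1.5-fold on the log2 scale with the pseudocount. Within SF3B the highest gene, Sf3b1, was 40.02 times as high as the lowest, Sf3b4, in CD4 and 24.3 times as high in CD8. Sf3b4 shared 75% of its coding windows with a pseudogene, so its low level is uncertain.

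Of the SF3A trio, Sf3a3 was at 64.1 RPKM in CD4 cells and 55.3 in CD8 cells, a ratio of 1.16 (1.07 to 1.26), and Sf3a1 was at 19.1 RPKM in CD4 cells and 16.4 in CD8 cells, a ratio of 1.16 (1.07 to 1.27). Sf3a2 was at 5.68 RPKM in CD4 cells and 6.04 in CD8 cells. Its values allow reads as few as 78 in CD4 and 80 in CD8, and multiples of these are possible. At these smallest reads its interval of 0.679 to 1.30 held 1, so no difference was detectable. Sf3a2 overlaps Plekhj1 on the opposite strand over 19.4% of its length, and Plekhj1 was at 33.7 RPKM in CD4 cells and 37.1 in CD8 cells.

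Splicing genes outside these symbols were set beside them from 6 lists. The Lsm proteins, relatives of the Sm proteins that form the ring of the U6 particle and rings of mRNA decay and histone mRNA processing, also leaned to CD8. Their median was -0.42 over 8 compared genes, 2 above 0 and 6 below, with 2 genes past 1.5-fold toward CD8 and 0 toward CD4. The 6 below 0 were short, from 468 annotated bases (Lsm7) to 1108 (Lsm2). The 2 above 0 were longer, Lsm6 at 3792 and Lsm11 at 6453. Since short genes as a whole leaned to CD8, this lean may not be particular to Lsm genes, and the part of length was not tested. Lsm5 was at 9.70 RPKM in CD4 cells and 21.1 in CD8 cells, a ratio of 0.459 (0.366 to 0.573), and Lsm7 was at 39.1 RPKM in CD4 cells and 70.7 in CD8 cells, a ratio of 0.554 (0.492 to 0.622). Lsm4, the highest, was at 65.1 RPKM in CD4 cells and 90.9 in CD8 cells. A lean to CD8 was not limited to splicing genes, since 78 compared ribosomal protein symbols had a median of -0.37, with 75 below 0, 22 past 1.5-fold toward CD8 and 0 toward CD4.

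Particle proteins outside the Snrp symbols had, as a list, a median near that of all compared genes. The 22 genes of the U1, U2, U4/U6.U5 and minor particles outside the Snrp symbols had a median of 0.05, with 1 gene past 1.5-fold in each direction. Snrnp70, the 70K protein of the U1 particle, was at 162 RPKM in CD4 cells and 115 in CD8 cells, a ratio of 1.42 (1.32 to 1.51), and the U5 helicase gene Snrnp200 was at 105 RPKM in CD4 cells and 88.8 in CD8 cells. The largest differences were in proteins of the minor spliceosome, with Snrnp35 at 7.34 RPKM in CD4 cells and 3.42 in CD8 cells, a ratio of 2.14 (1.66 to 2.79), and Snrnp25 at 13.3 RPKM in CD4 cells and 23.8 in CD8 cells, a ratio of 0.561 (0.482 to 0.653). With the pseudocount Snrnp35 lay under 2-fold.

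The 12 genes of 3′ splice site recognition had a median of 0.02 and 0 past 1.5-fold in either direction. U2af2, which binds the pyrimidine tract, was at 138 RPKM in both CD4 and CD8. Puf60, its relative, was at 122 RPKM in CD4 cells and 98.8 in CD8 cells, and Rbm17 was at 63.6 RPKM in CD4 cells and 52.3 in CD8 cells.

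SR-related proteins and the kinases that phosphorylate SR proteins had a median of 0.15 over 20 compared genes, close to that of the SR genes, with 1 gene past 1.5-fold toward CD4 and 0 toward CD8. Rbm39 was at 226 RPKM in CD4 cells and 227 in CD8 cells, and the SR kinase gene Clk1 was at 163 RPKM in CD4 cells and 166 in CD8 cells. Sfswap was at 27.7 RPKM in CD4 cells and 17.97 in CD8 cells, a ratio of 1.54 (1.44 to 1.65). Tra2b, an SR-like activator of exons, was at 87.5 RPKM in CD4 cells and 125 in CD8 cells, a ratio of 0.698 (0.661 to 0.736).

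Among 30 compared splicing regulators outside the symbol pattern the median was 0.14, with 1 past 1.5-fold toward CD4 and 0 toward CD8. That gene was Hnrpll, a known silencer of CD45 exons in activated and memory T cells, at 11.2 RPKM in CD4 cells and 7.08 in CD8 cells, a ratio of 1.58 (1.41 to 1.76). Hnrnpl, which acts on the same exons, had a ratio below 1, except with a common sum. Celf1 was at 17.7 RPKM in CD4 cells and 11.7 in CD8 cells, a ratio of 1.51 (1.43 to 1.59). With the pseudocount Celf1 lay just under 1.5-fold on the log2 scale. The highest of the list were Mbnl1, at 238 RPKM in CD4 cells and 257 in CD8 cells, and Ewsr1, at 243 RPKM in CD4 cells and 212 in CD8 cells.

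**Figure D4:**
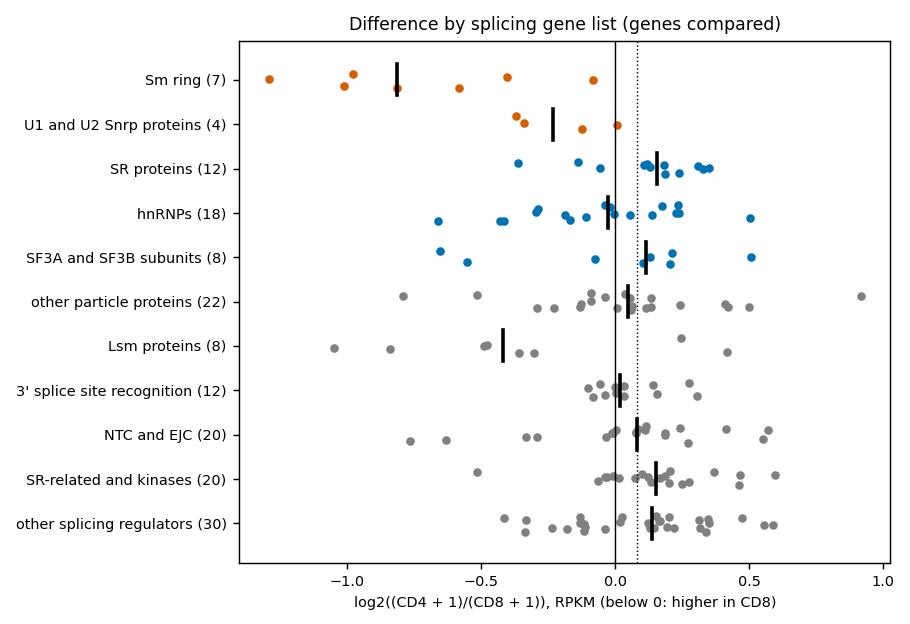
Log2 difference, CD4 over CD8 with 1 RPKM added, of each compared gene by list (points), with a black bar for the list median and a dotted line for the median of all compared genes (0.08). The Sm ring (-0.81) and the Lsm proteins (-0.42) have their medians furthest below 0, and the SR genes (0.16) and the SR-related genes (0.15) lie just above the dotted line.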

How the data were processed

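RNA was extracted with Trizol and RNeasy columns, depleted of ribosomal RNA and made into SOLiD low-input whole-transcriptome libraries, per the labels' protocols. The submitters' processing notes name TopHat, HTSeq and mm9 and no version. Which annotation and strand setting were used, and how multi-mapping reads were treated, is not given in the sources used here. Per the authors' deposited files the unit is RPKM, on 26882 rows. Repeated rows of 2597 of the 23167 symbols held identical values, and 1 was kept.

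Library totals and the smallest whole reads each value allows were recovered from the RPKM. All 12735 genes above 0 in both libraries gave whole reads to within 3 rounding errors of the printed value (9 decimals or 10 significant digits). Some reads may be multiples of these, so intervals are at their widest. Ratios are of RPKM without a pseudocount. Log2 differences carry a pseudocount of 1 RPKM and understate low genes. The comparison took genes that reached 1 RPKM in either library. The calculations were tested on simulated data. Gene lengths, overlaps and 50-base windows came from GENCODE M21 (GRCm38), whose gene models may differ from the authors', and promoters from RefSeq. The files carry no coordinates.

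Members and lists were chosen with earlier results of these data known. Named genes were, per class, the 4 highest by mean RPKM, the 4 with the largest absolute log2 difference and every gene at least 1.5-fold apart or under 1 RPKM in both, with others by value. Per further list they were the 2 highest, the 2 with the largest difference and every gene at least 2-fold apart. Alternatives were other pseudocounts, filters and scalings. No sequence is shown for Snrpd1. 1 marker gene is not reported here. Python 3.11.15, numpy 2.4.6, scipy 1.17.1 and matplotlib 3.10.9 were used.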

Additional observations from a re-analysis of the deposited data

How the results depend on the processing

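No paired analysis was possible because each cell type has 1 library. Snrpd2, Snrpd3, Snrpf and Snrpg stayed at least 1.5-fold higher in CD8 under each alternative. At 2-fold 1 gene instead of 2 was higher in CD8 with a pseudocount of 5 RPKM, with both libraries scaled to a sum of 1000000 and with rescaling to the housekeeping list, and 3 were with centring on the median gene and with Rn45s left out of the totals. Rescaling to a sum of 1000000 also put 3 genes (Hnrnph3, Sf3b2 and Srsf12) at least 1.5-fold higher in CD4, left 4 in CD8, and gave medians of 0.17 for all splicing genes, 0.37 for SR, 0.18 for hnRNP, 0.33 for SF3 and -0.19 for Snrp genes. Centring on the median gene gave -0.12 for all splicing genes, 0.076 for SR and 0.036 for SF3 genes. Leaving Rn45s out of the totals, an alternative chosen after seeing the data, gave 0.077 for SF3 genes. A pseudocount of 0.1 RPKM, centring and leaving out Rn45s each added Sf3b4 and Snrpd1, for 8 genes at least 1.5-fold higher in CD8. The common sum also changed the sign of 11 of the 49 log2 differences, all of genes under 1.5-fold, centring of 2 (Hnrnpk and Snrpa1), housekeeping of 1 (Hnrnpa3) and leaving out Rn45s of 1 (Snrpa1), while the pseudocounts and filters changed 0. Without replicates the spread between animals, sorts or library preparations is unknown, and at this depth the intervals of Sf3a2, Srsf12, Hnrnpa1, Sf3b4 and Snrpd1, among others, do not settle on which side of 1 or of 1.5-fold a gene lies.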

Other observations

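Later steps of splicing and genes restricted to other tissues were read from the same lists. The 20 compared genes of the NTC (Prp19 complex), which activates the spliceosome, and of the exon junction complex, which marks spliced mRNA, had a median log2 difference of 0.08, as had all compared genes, with 0 past 1.5-fold toward CD4 and 2 toward CD8. Those 2 were Magoh and Rbm8a, whose proteins form the heterodimer at the core of the exon junction complex. Magoh was at 29.3 RPKM in CD4 cells and 50.5 in CD8 cells, a ratio of 0.580 (0.514 to 0.654). Rbm8a was at 11.8 RPKM in CD4 cells and 18.7 in CD8 cells, a ratio of 0.628 (0.572 to 0.689). Eif4a3, the helicase they clamp on the RNA, was nearly level at 89.9 RPKM in CD4 cells and 85.1 in CD8 cells, a ratio of 1.06 (1.005 to 1.11). Ddx39b, an export and splicing helicase, was the highest of the list at 174 RPKM in CD4 cells and 117 in CD8 cells, a ratio of 1.49 (1.43 to 1.54). The neuronal regulators Nova1 and Nova2 and the epithelial regulator Esrp1 were listed at 0 in both libraries.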
